A study of Homo sapiens with 12 samples.

Results

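The collagen chain genes are the protein-coding genes whose symbol consists of COL, a number, the letter A and a second number. There were 44 of them among the 36675 genes listed in at least 1 of the 2 count tables, 43 in the A375 table and 44 in the CHL1 table, where COL6A5 was the additional one. The family was chosen with earlier results of these data known, and its members were then taken by name alone. They were grouped by the kind of assembly their chains form. The grouping gave 11 fibrillar genes, 6 basement membrane genes, 5 beaded filament genes, 1 anchoring fibril gene, 3 network genes, 10 genes of the fibril-associated collagens with interrupted triple helices (FACIT), 4 transmembrane genes, 2 multiplexin genes and 2 others.

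Messenger RNA was counted in A375 and CHL1, which are human melanoma cell lines, and in 1 derivative of each that had become resistant to palbociclib, which blocks the cell cycle kinases CDK4 and CDK6. The resistant A375 cells had been selected in rising palbociclib concentrations for 7 months and the resistant CHL1 cells for 3 months, and both were then kept in 4 µM palbociclib. The parental A375 and parental CHL1 cells grew in the same medium without the drug. All cells spent 72 h in palbociclib-free medium before RNA was extracted, and each of the 4 groups had 3 libraries. Whether the derivatives are clones is not stated in the labels, and neither is whether the 3 libraries of a group came from separate cultures, and p-values therefore reflect nothing but how far these particular libraries scatter, possibly for technical reasons alone. In such bulk samples, fewer cells of a kind and less RNA per cell cannot be told apart.

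Collagens are trimers of alpha chains wound into a triple helix, and each chain is the product of its own gene. The chains are hydroxylated and glycosylated in the endoplasmic reticulum, folded with the help of dedicated chaperones, secreted, trimmed by proteinases and cross-linked outside the cell. Fibrillar collagens give tissues tensile strength, basement membrane collagens form sheets under epithelia and around vessels, and FACIT collagens decorate fibril surfaces. In melanoma, collagen is made both by stromal cells and by the tumour cells themselves, and only tumour cell lines were measured here.

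Total counts ran from 25398920 to 29812686 per library, and 3 counts in a library stood for 0.101 to 0.118 CPM (read counts scaled to a common library total), the floor below which a gene cannot be told from 0. The first principal component separated the resistant from the parental libraries in each line. The 12 melanoma and pigment cell markers summed to 882 to 1202 CPM in resistant A375, 1074 to 1453 CPM in parental A375, 2398 to 2776 CPM in resistant CHL1 and 2567 to 2748 CPM in parental CHL1. Of these 12 markers, 4 averaged below 1 CPM in resistant A375, 5 in parental A375, 3 in resistant CHL1 and 2 in parental CHL1. TYR, the pigment enzyme tyrosinase, had 0 counts in every A375 library. The 8 leukocyte markers summed to at most 80.6 CPM in A375 and 11.9 CPM in CHL1, and the 6 endothelial markers listed to at most 15.2 CPM in A375 and 2.93 CPM in CHL1. Most of the leukocyte sum in A375 was CD68, at 47.7 to 74 CPM in the A375 libraries.

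Upstream windows of 32 of the 44 genes were matched in a RefSeq table (build GRCh38.p14). No window was matched for COL1A1, COL1A2, COL2A1, COL3A1, COL5A2, COL6A1, COL6A5, COL8A1, COL9A3, COL14A1, COL20A1 and COL22A1. The windows shown are those of the head-to-head pair COL4A5 and COL4A6 on chromosome X, which rose together in A375, the stretch between the starts of the head-to-head pair COL4A1 and COL4A2 on chromosome 13, which moved differently there, and the window of COL5A1 on chromosome 9, the gene that fell in both lines. Each is written 5′ to 3′, the stretch between COL4A1 and COL4A2 on the plus strand and the others on the strand of the gene, in lower case with capitals for matches on either strand to the letters GGGCGG (the core of a GC box) or CCAAT. The starts of COL4A6 and COL4A5 lay 1416 bases apart, and those of COL4A1 and COL4A2 lay 127 bases apart.
COL4A5, chrX:108439588-108439837, plus strand: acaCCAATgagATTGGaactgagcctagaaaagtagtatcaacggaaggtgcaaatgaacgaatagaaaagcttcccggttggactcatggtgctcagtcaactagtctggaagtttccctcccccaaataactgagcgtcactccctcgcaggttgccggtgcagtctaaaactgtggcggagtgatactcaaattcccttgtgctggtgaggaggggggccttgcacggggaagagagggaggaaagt
COL4A6, chrX:108438423-108438672, minus strand: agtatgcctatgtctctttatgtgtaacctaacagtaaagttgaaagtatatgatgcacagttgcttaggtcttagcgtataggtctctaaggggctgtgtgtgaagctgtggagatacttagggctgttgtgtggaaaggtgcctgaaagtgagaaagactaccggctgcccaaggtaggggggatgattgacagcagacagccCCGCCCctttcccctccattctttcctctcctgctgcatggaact
COL4A1 to COL4A2, chr13:110307158-110307283, plus strand: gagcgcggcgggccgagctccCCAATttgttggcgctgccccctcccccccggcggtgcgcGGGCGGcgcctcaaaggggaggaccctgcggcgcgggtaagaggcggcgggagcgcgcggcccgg
COL5A1, chr9:134641555-134641804, plus strand: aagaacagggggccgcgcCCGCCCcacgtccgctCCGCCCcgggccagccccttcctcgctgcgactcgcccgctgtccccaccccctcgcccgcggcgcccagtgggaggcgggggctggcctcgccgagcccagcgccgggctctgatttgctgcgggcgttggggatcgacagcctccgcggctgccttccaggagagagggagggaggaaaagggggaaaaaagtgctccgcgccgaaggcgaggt
Of the windows of 250 bases upstream of the start, GGGCGG was found in 19 of the 32 collagen windows and in 42.6% of all 35116 windows in the table, and CCAAT in 9 of 32 and in 32% of all. TATAAA was found in 7 of 32 and in 10.7% of all, and TGANTCA, the letters an AP-1 site takes, in 0 of 32 and in 6.57% of all. These counts describe letters in the windows and nothing more.

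The first comparison asked which collagen genes differed between palbociclib-resistant A375 cells and parental A375 cells. Resistant A375 cells held more mRNA of the type I chain gene COL1A2, of the type VI genes COL6A1, COL6A2 and COL6A3, of the network gene COL8A1, of the X-linked basement membrane genes COL4A5 and COL4A6 and of the type V gene COL5A2. They held less mRNA of the other type V genes COL5A1 and COL5A3, of the FACIT gene COL9A3 and of the transmembrane gene COL17A1. Of the 44 genes, 35 had enough counts to be tested, 14 rose, 8 fell and 13 were not called at an edgeR adjusted p below 0.05, and 14 of the calls were changes of at least 2-fold. Called genes made up 62.9% of the collagen genes tested and 28.3% of all 18086 genes tested, of which 13.4% were higher and 14.8% lower. Calls of at least 2-fold made up 40% of the collagen genes tested and 7.35% of all genes tested. The median log2 fold change was 0.23 over the collagen genes tested and 0.00 over all genes tested. COL1A2, COL3A1 and COL22A1 passed the filter on low counts only through the resistant libraries, so their being tested and their being high are not independent, and the shares and the median include them. The resistant and parental libraries did not overlap for the 22 called genes, as for 99% of the 5111 called genes over the whole table.

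**Figure D1:**
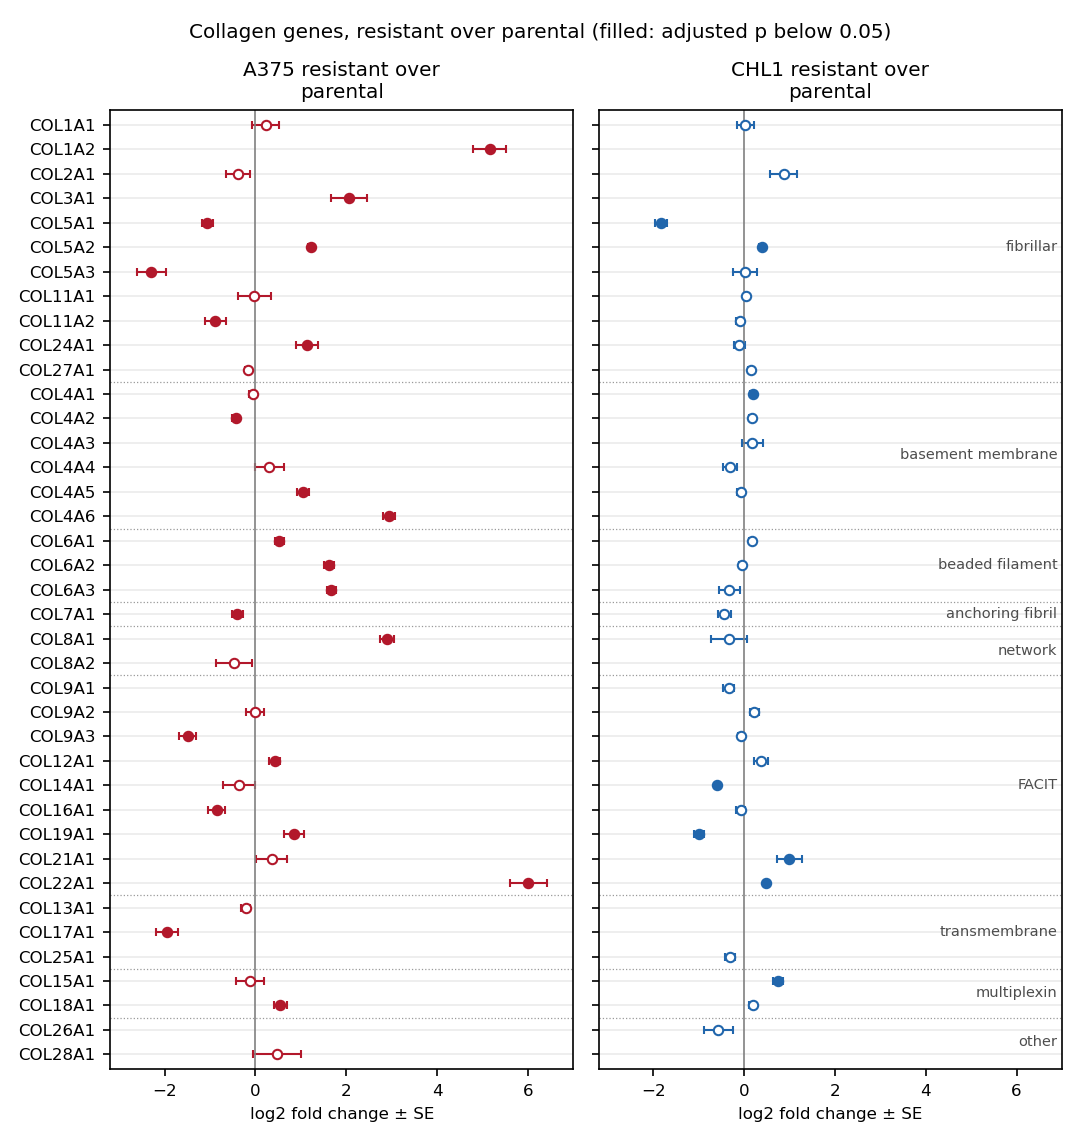
Log2 fold change of resistant over parental (points) ± SE (bars) for each collagen gene tested in at least 1 line, A375 on the left and CHL1 on the right, ordered by class. Filled points are called at an adjusted p below 0.05; 22 points are filled in A375 and 8 in CHL1, and the A375 values spread from -2.29 (COL5A3) to 6.01 (COL22A1), against -1.82 (COL5A1) to 1.00 (COL21A1) in CHL1.

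Markers of fibroblasts, the main collagen-making cells of the dermis, were measured beside these changes. Leaving collagens aside, the 12 fibroblast markers summed to 53.9 to 61.9 CPM in resistant A375 and 36.0 to 41.0 CPM in parental A375. Of the 10 tested 5 rose (PDGFRA, FAP, LUM, FBLN1, ACTA2) and 2 fell (PDGFRB, PDPN), beside 28.3% of all genes called. FAP passed the filter on low counts only through the resistant libraries, so its call and its part in the count follow in part from the filter. PDGFRA, a receptor of mesenchymal cells, had 4.52, 3.79 and 4.80 CPM in resistant A375, against 1.75, 1.70 and 1.03 CPM in parental A375. FAP and LUM also stand on the degradation and matrix lists used further on. THY1 lay between 0.114 and 0.222 CPM in all 6 A375 libraries, and DPT, which encodes the dermal protein dermatopontin, between 0 and 0.0674 CPM. The part of these markers in the collagen changes was not tested.

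Among the fibrillar genes, the 2 chains of type I collagen differed in A375. COL1A2, which encodes the alpha 2 chain, had 13.3, 15.4 and 13 CPM in the resistant libraries, against 0.190, 0.815 and 0.146 CPM in the parental ones. It rose by a log2 fold change of 5.16 ± 0.36 (SE, edgeR adjusted p = 2.8e-05), and by 6.34 without parental replicate 2, the highest of the 3 parental libraries. COL1A1, which encodes the alpha 1 chain, had 6.44, 6.79 and 4.16 CPM in the resistant libraries, against 5.20, 2.78 and 6.88 CPM in the parental ones, and its groups overlapped (0.23 ± 0.30, edgeR adjusted p = 0.63). On the scale of CPM per kb of exon, the ratio of COL1A2 to COL1A1 was therefore 1.82, 2.00 and 2.76 in the resistant libraries and 0.0321, 0.258 and 0.0187 in the parental ones. COL3A1, the single chain gene of type III collagen, rose at a low level, with 0.843, 0.861 and 0.502 CPM in the resistant libraries, against 0.152, 0.259 and 0.110 CPM in the parental ones (2.06 ± 0.39, edgeR adjusted p = 0.0043).

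Type V collagen, which sets the diameter of type I fibrils, showed opposite changes among its 3 chain genes in A375. COL5A2 had 615, 614 and 553 CPM in the resistant libraries, against 268, 264 and 230 CPM in the parental ones, a log2 fold change of 1.23 ± 0.07 (edgeR adjusted p = 1.1e-05). COL5A1 had 18.5, 25.8 and 22.7 CPM in the resistant libraries, against 50.2, 44.4 and 45.7 CPM in the parental ones, a change of -1.06 ± 0.12 (edgeR adjusted p = 0.00025). COL5A3 had 3.88, 2.10 and 2.58 CPM in the resistant libraries, against 20.8, 11.7 and 9.56 CPM in the parental ones, a change of -2.29 ± 0.32 (edgeR adjusted p = 0.00089). The highest resistant library lay below the lowest parental library for COL5A1 and COL5A3, and above the highest parental library for COL5A2.

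The remaining fibrillar genes moved less or lay lower. COL24A1, which encodes a minor fibrillar chain, rose, with 1.89, 1.69 and 2.15 CPM in the resistant libraries, against 0.721, 0.704 and 1.17 CPM in the parental ones (1.13 ± 0.24, edgeR adjusted p = 0.007). COL11A2, a type XI chain gene of cartilage fibrils, fell, with 4.18, 4.40 and 5.41 CPM in the resistant libraries, against 12.3, 6.41 and 7.18 CPM in the parental ones (-0.88 ± 0.24, edgeR adjusted p = 0.024). That call was lost without resistant replicate 1 or resistant replicate 2, with adjusted p-values of up to 0.087. COL11A1 had 5.43, 5 and 4.41 CPM in the resistant libraries, against 2.73, 3.70 and 8.60 CPM in the parental ones, and its groups overlapped with parental replicate 3 above all others. Without that library COL11A1 was called higher in resistant A375 (0.62, edgeR adjusted p = 0.043). COL27A1 had 56.4, 58.6 and 56.6 CPM in the resistant libraries, against 62.0, 63.4 and 66.5 CPM in the parental ones, which did not overlap but missed the threshold (-0.16 ± 0.06, edgeR adjusted p = 0.06). COL2A1, the type II chain gene of cartilage, was not called either (-0.38 ± 0.26, edgeR adjusted p = 0.32).

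The 6 basement membrane genes lie as head-to-head pairs, and the pairs behaved differently in A375. COL4A5 had 13.7, 13.3 and 14 CPM in the resistant libraries, against 7.78, 5.67 and 6.30 CPM in the parental ones (1.05 ± 0.13, edgeR adjusted p = 0.00039). Its partner COL4A6 had 14, 16.4 and 15.3 CPM in the resistant libraries, against 2.09, 2.11 and 1.76 CPM in the parental ones (2.94 ± 0.13, edgeR adjusted p = 3.6e-06). Both rose, and COL4A6 by more, so that the ratio of COL4A6 to COL4A5 per kb of exon was 1.31, 1.58 and 1.40 in the resistant libraries and 0.343, 0.476 and 0.357 in the parental ones. Per kb of the longest transcript the ratio was 0.984, 1.19 and 1.05 in the resistant libraries. The 20 nearest expressed genes on chromosome X had a median of 0.37, 14 of them were called higher, 6 rose at least as much as COL4A5 and 0 as much as COL4A6.

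The pair on chromosome 13 encodes the chains of the common alpha 1, alpha 1, alpha 2 trimer of type IV collagen. COL4A1 had 331, 295 and 314 CPM in the resistant libraries, against 362, 323 and 295 CPM in the parental ones, and the groups overlapped (-0.06 ± 0.08, edgeR adjusted p = 0.6). COL4A2 had 511, 442 and 471 CPM in the resistant libraries, against 713, 610 and 593 CPM in the parental ones, which did not overlap (-0.43 ± 0.08, edgeR adjusted p = 0.004). The ratio of COL4A2 to COL4A1 per kb of exon was 1.18, 1.15 and 1.15 in the resistant libraries and 1.51, 1.44 and 1.53 in the parental ones. The 20 nearest expressed genes had a median of -0.35, and 13 of them were called lower. COL4A4 was tested without a call (0.31 ± 0.32), and COL4A3 lay too low to be tested.

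The beaded filament genes encode type VI collagen, whose alpha 1, alpha 2 and alpha 3 chains assemble in equal numbers into filaments around cells. All 3 genes with enough counts to be tested rose in A375. COL6A1 had 252, 251 and 290 CPM in the resistant libraries, against 199, 153 and 198 CPM in the parental ones (0.53 ± 0.10, edgeR adjusted p = 0.0053). COL6A2 had 137, 141 and 160 CPM in the resistant libraries, against 51.9, 39.4 and 52.7 CPM in the parental ones (1.61 ± 0.11, edgeR adjusted p = 2.8e-05). COL6A3 had 37.0, 45.6 and 43.1 CPM in the resistant libraries, against 13.8, 13.7 and 12.1 CPM in the parental ones (1.67 ± 0.10, edgeR adjusted p = 1.2e-05). Every resistant library lay above every parental library for each of them. The 19 nearest expressed genes around COL6A1 and COL6A2 on chromosome 21 had a median of -0.06, and 0 of them were called higher. The ratio of COL6A2 to COL6A1 per kb of exon was 0.541, 0.557 and 0.545 in the resistant libraries and 0.259, 0.255 and 0.264 in the parental ones.

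**Figure D2:**
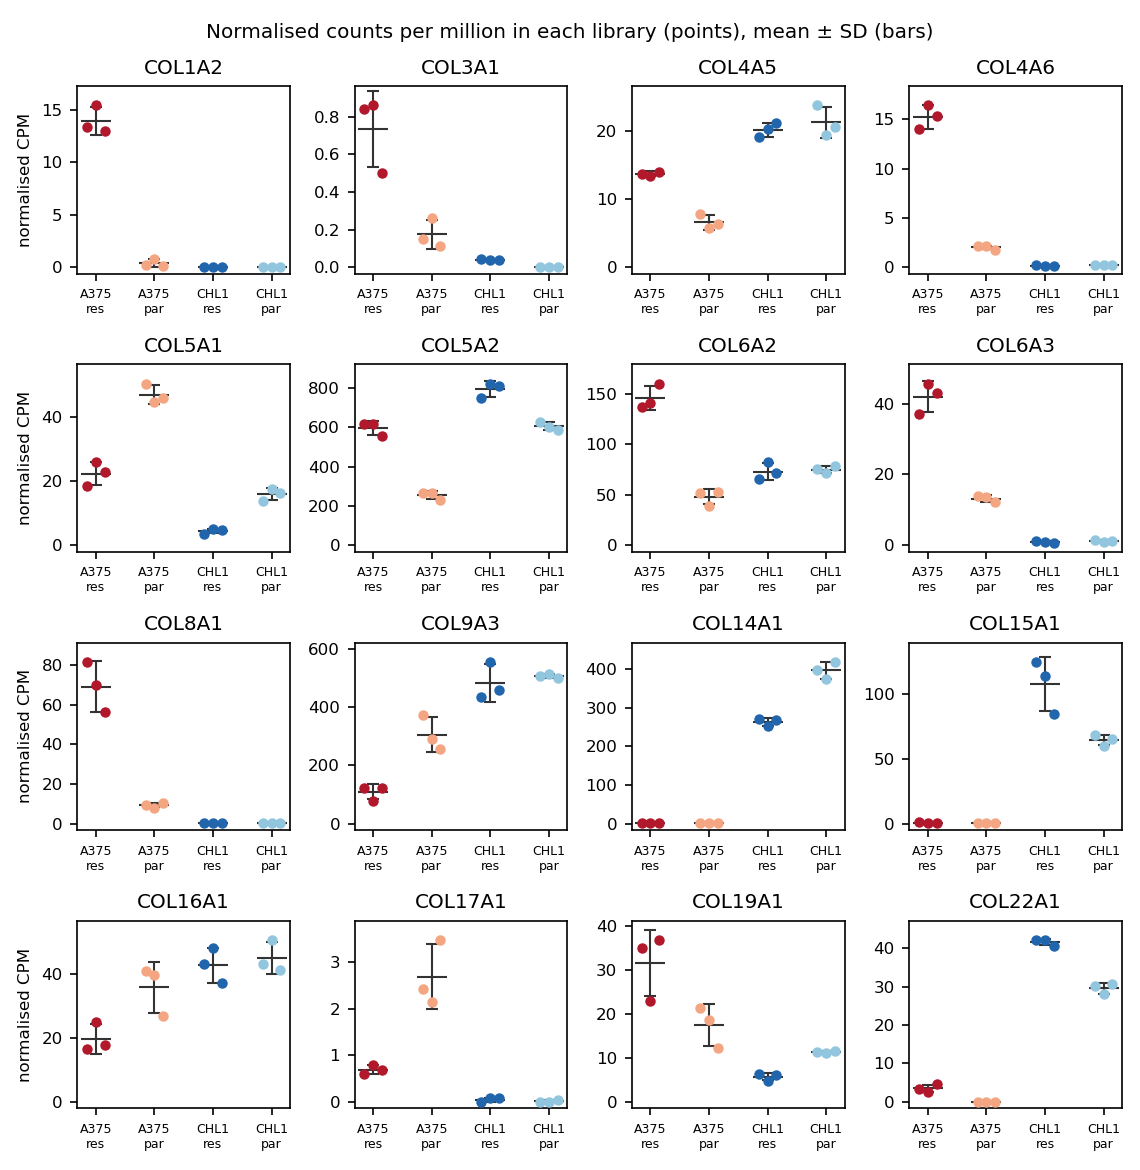
Normalised CPM on linear axes in each library (points) with mean ± SD of the 3 libraries (bars) for 16 collagen genes, in resistant and parental A375 and resistant and parental CHL1 from left to right, each panel with its own axis. COL5A1 lies lower and COL5A2 higher in the resistant libraries of both lines, while COL6A3 and COL8A1 lie between 37.0 and 81.5 CPM in resistant A375 and below 2 CPM in every CHL1 library.

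COL8A1, which encodes a short-chain collagen of the vessel wall and of the membrane behind the cornea, was the network gene with the higher level in A375. It had 81.5, 69.8 and 56.0 CPM in the resistant libraries, against 9.60, 8.08 and 10.2 CPM in the parental ones (2.90 ± 0.15, edgeR adjusted p = 6.3e-06). Its partner gene COL8A2 stayed below 1 CPM in every library and was not called (-0.47 ± 0.40), and COL10A1, the marker of hypertrophic cartilage, was not tested.

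Among the FACIT genes, COL22A1 changed most. COL22A1, known from tissue junctions, had 3.24, 2.65 and 4.55 CPM in the resistant libraries, against 0.0379, 0.0741 and 0.0366 CPM in the parental ones, below the floor. The parental libraries held 4 counts in all. The resistant ones held 306, which scaled by depth is 70.1 times as many with an exact 95% interval of 27.1 to 259 that covers counting error only (fitted log2 fold change 6.01 ± 0.41, edgeR adjusted p = 2.5e-05). COL19A1, which was found first in rhabdomyosarcoma cells, rose with 34.9, 23.0 and 36.7 CPM in the resistant libraries, against 21.4, 18.5 and 12.2 CPM in the parental ones (0.86 ± 0.22, edgeR adjusted p = 0.018). COL12A1, which binds type I fibrils, rose with 111, 94.5 and 79.8 CPM in the resistant libraries, against 77.7, 72.8 and 61.1 CPM in the parental ones (0.43 ± 0.12, edgeR adjusted p = 0.029). The COL19A1 groups lay close, at 23.0 CPM in the lowest resistant and 21.4 CPM in the highest parental library, and the call was lost without resistant replicate 1 or 3. The COL12A1 call was lost without parental replicate 3, resistant replicate 1 or resistant replicate 2.

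COL9A3 and COL16A1 were the FACIT genes that fell. COL9A3, a chain of type IX collagen, had 124, 79.0 and 123 CPM in the resistant libraries, against 374, 290 and 255 CPM in the parental ones (-1.49 ± 0.19, edgeR adjusted p = 0.00048). Of its partner genes, COL9A2 was not called (0.00 ± 0.20) and COL9A1 lay between 0.0732 and 0.191 CPM in all A375 libraries. COL16A1 had 16.4, 25.1 and 17.8 CPM in the resistant libraries, against 41.1, 39.6 and 26.8 CPM in the parental ones (-0.85 ± 0.19, edgeR adjusted p = 0.01). In both genes the highest resistant library lay below the lowest parental one. COL14A1 lay between 0.333 and 0.769 CPM and COL21A1 between 0.366 and 0.825 CPM, and both groups overlapped.

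Of the genes outside these classes, COL17A1 and COL7A1, which both anchor epidermal cells to the dermis, fell in A375. COL17A1, a hemidesmosome protein, had 0.607, 0.797 and 0.681 CPM in the resistant libraries, against 2.43, 2.15 and 3.48 CPM in the parental ones (-1.94 ± 0.24, edgeR adjusted p = 0.00052). Its 20 nearest expressed genes on chromosome 10 had a median of -0.62, and 19 of them were called lower. COL7A1, the anchoring fibril gene, had 15, 18.3 and 20.3 CPM in the resistant libraries, against 24.5, 25.3 and 20.8 CPM in the parental ones (-0.40 ± 0.12, edgeR adjusted p = 0.04). Resistant replicate 3 lay next to parental replicate 3, and the call was lost without parental replicate 1 or 2 or without resistant replicate 1 or 2, and with library totals as the only scaling (edgeR adjusted p = 0.051). The 12 keratinocyte and epithelial markers summed to 445 to 495 CPM in resistant and 381 to 472 CPM in parental A375, with KRT5 (tested only through the parental libraries), KRT14, KRT15 and DSP lower and KRT18 higher, and their part in these changes was not tested.

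COL18A1, the source of endostatin, rose in A375 with 44.6, 34.8 and 43.3 CPM in the resistant libraries, against 33.3, 29 and 21.7 CPM in the parental ones (0.55 ± 0.15, edgeR adjusted p = 0.024). The call was lost without resistant replicate 1 or 3. SLC19A1 on the opposite strand shares 16.4% of the exon bases of COL18A1, and since the library kit does not mark strand, reads there cannot be told apart between the genes. COL13A1, a transmembrane collagen of cell contacts, had 34.5, 38.2 and 38.7 CPM in the resistant libraries, against 37.1, 45.0 and 47.1 CPM in the parental ones, and the groups overlapped (-0.21 ± 0.10, edgeR adjusted p = 0.14). COL15A1 lay between 0.466 and 1.04 CPM and COL28A1 between 0.0732 and 0.542 CPM in A375, and neither was called.

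Levels of different genes were compared as CPM per kb of exon, and all shares below are shares of the summed collagen level on that scale. The sum was 276 ± 9.01 in resistant A375 and 239 ± 25.4 in parental A375 (SD, n = 3 each). COL5A2 made up 28.9% ± 2.21 of the sum in resistant A375 and 14.3% ± 1.10 in parental A375, and COL9A3 made up 8.11% ± 1.71 in resistant and 26.4% ± 2.49 in parental A375 (SD, n = 3 each). The most abundant collagen mRNA was thus COL5A2 in resistant A375 and COL9A3 in parental A375, also when levels were taken per kb of the longest transcript, where COL5A2 made up 19.6% in resistant A375. By class, fibrillar genes held 32.6% in resistant and 20% in parental A375. Beaded filament genes held 28.6%, basement membrane genes 17.7% and FACIT genes 13.8% in resistant A375. The beaded filament share was 18.5%, the basement membrane share 23.5% and the FACIT share 31.9% in parental A375. Class shares depend on the length used. COL4A2 alone held 8.92% in resistant and 13.9% in parental A375 per kb of exon. Per kb of the longest transcript it held 17% and 23.1%, so the order of the classes holds for the exon scale only. Shares in a library add up to a whole, so a rise of 1 gene lowers the shares of the others.

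**Figure D3:**
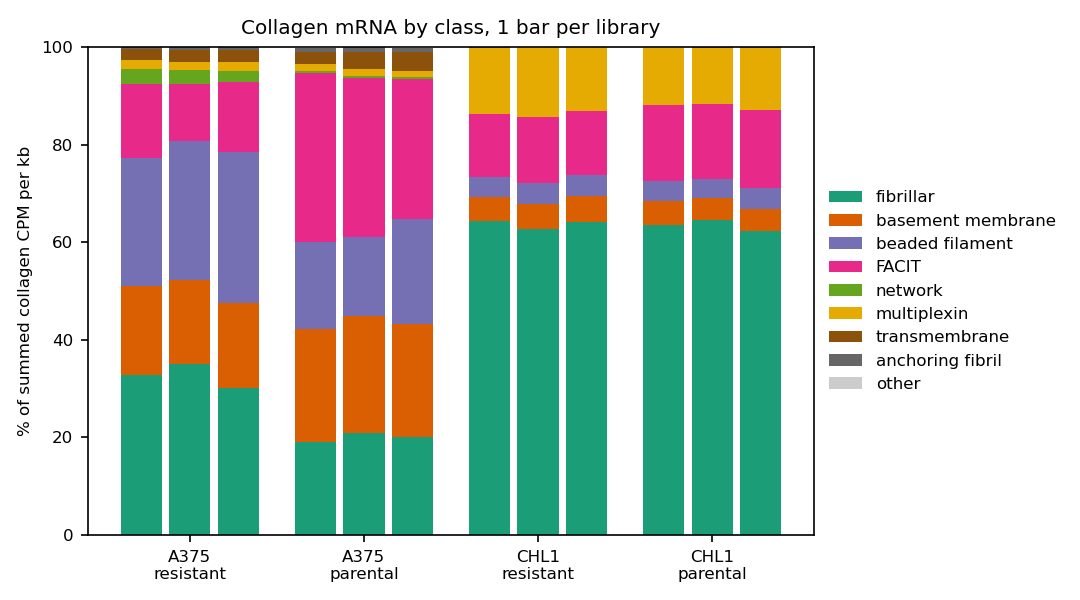
Share of each collagen class in the summed collagen CPM per kb of exon, in percent, with 1 stacked bar per library in resistant A375, parental A375, resistant CHL1 and parental CHL1. The FACIT share lies between 11.7% and 15.1% in resistant A375 and between 28.6% and 34.6% in parental A375, and fibrillar genes hold more than 60% in every CHL1 library.

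Genes that modify, fold, trim, cross-link, bind and degrade collagen were counted beside the collagen genes, from 7 lists. Among the called genes of these lists, MMP9, FAP and TLL1 in A375 passed the filter on low counts only through the resistant libraries and PRODH in CHL1 only through the parental ones, so their calls and their part in the counts follow in part from the filter. Over all genes tested in A375, 13.4% were called higher and 14.8% lower, the background for the list counts in that line. Of the 14 hydroxylases and glycosyltransferases, all tested in A375, 1 rose and 5 fell, with a list median of -0.07. COLGALT1, which adds galactose to hydroxylysine, averaged 141 ± 1.72 CPM in resistant and 212 ± 12.6 CPM in parental A375 (SD, n = 3 each; -0.59 ± 0.06, edgeR adjusted p = 0.00012). PLOD2, which hydroxylates the lysines used in cross-links, averaged 59.6 ± 0.656 CPM in resistant and 89.2 ± 9.14 CPM in parental A375 (SD, n = 3 each; -0.58 ± 0.08). COLGALT2 rose (1.13 ± 0.19), and P3H4, a partner of lysyl hydroxylase, fell (-0.31 ± 0.07). Of the 14 folding and export genes, 3 rose and 1 fell, with a median of -0.05. SERPINH1, the collagen chaperone HSP47, averaged 106 ± 8.89 CPM in resistant and 85.1 ± 5.68 CPM in parental A375 (SD, n = 3 each; 0.32 ± 0.07, edgeR adjusted p = 0.011). FKBP7 (0.44 ± 0.13) and PDIA3 (0.16 ± 0.04) also rose, and SEC24D, a cargo adaptor of transport vesicles, fell (-0.26 ± 0.07).

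Of the 8 procollagen processing genes tested in A375, 2 rose and 1 fell, with a median of 0.10, beside 28.3% of all genes called. PCOLCE, an enhancer of the proteinase that removes the C-terminal propeptide, averaged 98.7 ± 19.4 CPM in resistant and 63.2 ± 13.7 CPM in parental A375 (SD, n = 3 each; 0.64 ± 0.17, edgeR adjusted p = 0.022). TLL1, such a proteinase, rose (1.68 ± 0.38), and FURIN, which activates many proteinases, fell (-0.40 ± 0.06). Of the 6 cross-linking genes tested, 1 rose and 3 fell, with a median of -0.52. PXDN, the peroxidasin that joins type IV collagen trimers through sulfilimine bonds, had 0.977, 0.924 and 0.502 CPM in the resistant libraries, against 55.6, 37.2 and 71.1 CPM in the parental ones (-6.07 ± 0.31, edgeR adjusted p = 6.5e-06). This was a larger change than that of any collagen gene that fell in A375. The transglutaminase TGM2 (-1.03 ± 0.12) and the lysyl oxidase homologue LOXL4 (-1.78 ± 0.40) fell, and LOXL3 rose (0.58 ± 0.12).

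The called share of all genes tested in A375, to be set beside the next counts, was 28.3%. Of the 11 collagen receptors tested in A375, 3 rose and 2 fell, with a median of 0.20. ITGA1, the alpha 1 integrin chain that binds type IV collagen, had 236, 222 and 219 CPM in the resistant libraries, against 106, 94.3 and 54.9 CPM in the parental ones (1.41 ± 0.19, edgeR adjusted p = 0.00084). ADGRG6, an adhesion receptor that binds type IV collagen (1.24 ± 0.13), and ITGA10, an integrin chain of cartilage (1.21 ± 0.14), rose too. DDR1, a receptor tyrosine kinase activated by collagen, fell (-0.64 ± 0.07). Of the 12 degradation genes tested, 7 rose and 2 fell, with a median of 0.81. MMP9, a gelatinase, had 11.0, 16.4 and 23.4 CPM in the resistant libraries, against 0.152, 0.445 and 0.183 CPM in the parental ones (6.00 ± 0.41, edgeR adjusted p = 2.6e-05). FAP, a cell-surface protease (3.46 ± 0.24), and PEPD, the peptidase that frees proline (0.92 ± 0.07), rose, and CTSK, cathepsin K, fell (-3.01 ± 0.19). Of the 12 collagen-binding matrix genes tested, 2 rose and 3 fell, with a median of 0.02. FN1, fibronectin, had 945, 861 and 605 CPM in the resistant libraries, against 275, 292 and 167 CPM in the parental ones (1.72 ± 0.22, edgeR adjusted p = 0.00056). LUM, the proteoglycan lumican, rose (1.58 ± 0.20), and THBS1 (-1.16 ± 0.23) and FBN1, fibrillin 1 (-0.37 ± 0.11), fell.

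In CHL1, where the derivative had been selected for 3 months, the same question was asked. Resistant CHL1 cells held more mRNA of COL5A2, COL15A1, COL22A1, COL21A1 and COL4A1 and less of COL5A1, COL14A1 and COL19A1. Of the 44 genes, 32 were tested, 5 rose, 3 fell and 24 were not called, and 1 of the calls, COL5A1, was a change of at least 2-fold, with COL21A1 just under it. Over all 17219 genes tested, 21.0% were called, 9.50% higher and 11.5% lower, and 1.70% were called with at least 2-fold. The called share was 25.0% of the collagen genes tested, which is near that background. COL21A1 passed the filter on low counts only through the resistant libraries. The count of genes that rose was 3 without parental replicate 2 or without resistant replicate 2 and 8 without resistant replicate 1, and the count that fell was 6 without resistant replicate 2. With library totals as the only scaling, 8 rose and 3 fell. The median log2 fold change was -0.01 over the collagen genes tested and 0.01 over all genes tested.

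The type V pair moved apart in CHL1 as well. COL5A1 had 3.61, 4.95 and 4.82 CPM in the resistant libraries, against 13.7, 17.5 and 16.4 CPM in the parental ones (-1.82 ± 0.13, edgeR adjusted p = 3.1e-06). COL5A2 had 747, 821 and 809 CPM in the resistant libraries, against 627, 602 and 588 CPM in the parental ones (0.39 ± 0.05, edgeR adjusted p = 0.00019). Neither pair of groups overlapped, and the ratio of COL5A2 to COL5A1 per kb of exon was 311, 249 and 252 in the resistant libraries and 68.6, 51.6 and 53.7 in the parental ones. In A375 the same ratio was 50, 35.7 and 36.6 in the resistant libraries and 8.02, 8.91 and 7.57 in the parental ones. The 20 nearest expressed genes of COL5A1 on chromosome 9 had a median of -0.01 in CHL1 and of -0.03 in A375, and 0 of them in either line fell as much as COL5A1. COL5A3 lay between 0.798 and 1.41 CPM in CHL1 and was not called (0.02 ± 0.27).

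**Figure D4:**
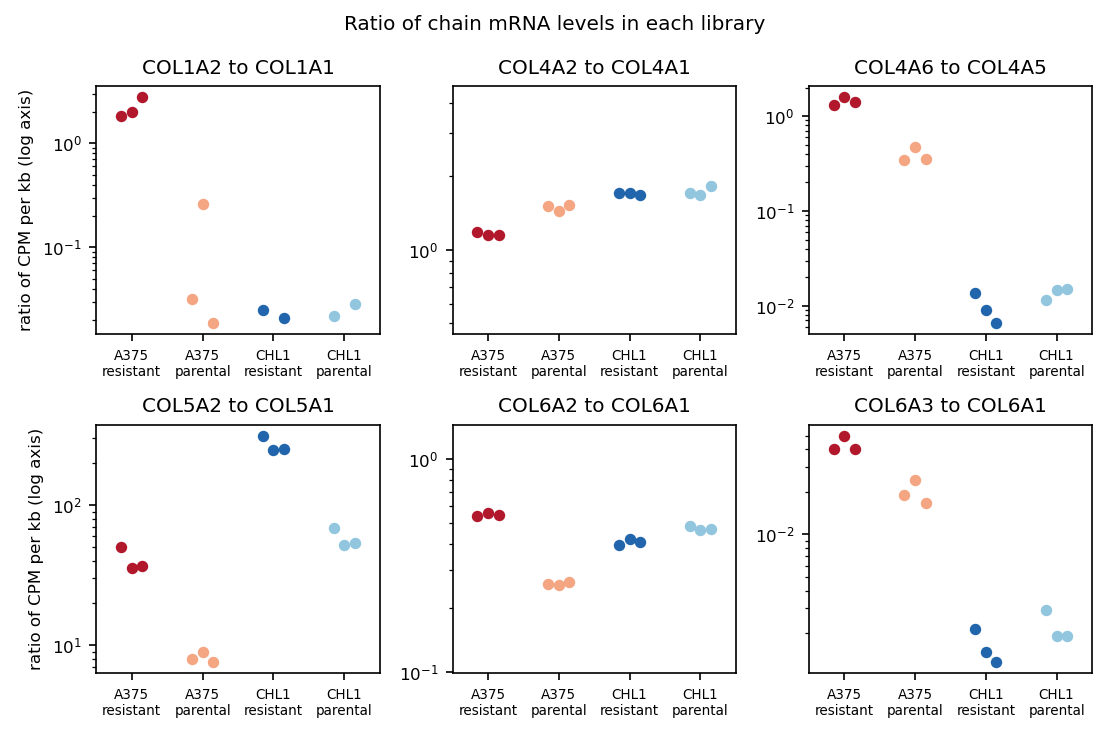
Ratio of the mRNA levels of chains that can share a trimer, as CPM per kb of exon on log axes, in each library of resistant and parental A375 and resistant and parental CHL1; the COL1A2 to COL1A1 ratio was 0 in 1 resistant and 1 parental CHL1 library, which are not drawn. The ratio of COL5A2 to COL5A1 lies between 35.7 and 50 in resistant A375, 7.57 and 8.91 in parental A375, 249 and 311 in resistant CHL1, and 51.6 and 68.6 in parental CHL1.

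COL11A1, the gene with the highest collagen level in CHL1, had 4403, 4712 and 4336 CPM in the resistant libraries, against 4412, 4478 and 4223 CPM in the parental ones, and the groups overlapped (0.04 ± 0.05, edgeR adjusted p = 0.61). COL11A2 had 622, 774 and 626 CPM in the resistant libraries, against 695, 757 and 708 CPM in the parental ones, also with overlap (-0.09 ± 0.08, edgeR adjusted p = 0.44). COL27A1 had 58.6, 63.9 and 55.4 CPM in the resistant libraries, against 50.6, 56.1 and 53.3 CPM in the parental ones (0.15 ± 0.06, edgeR adjusted p = 0.11). The COL11A2 resistant libraries lay on both sides of the parental ones, with resistant replicate 2 above and the other two below. COL24A1 lay between 3.33 and 4.04 CPM (-0.10 ± 0.12), COL1A1 between 1.23 and 1.52 CPM (0.03 ± 0.18), and COL2A1 between 0.725 and 1.16 CPM in the resistant and 0.359 and 0.679 CPM in the parental libraries (0.87 ± 0.29, edgeR adjusted p = 0.052). COL1A2 and COL3A1 did not exceed 0.0405 CPM in any CHL1 library, which is below the floor.

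COL4A1 had 268, 321 and 293 CPM in resistant CHL1, against 267, 256 and 243 CPM in parental CHL1 (0.20 ± 0.06, edgeR adjusted p = 0.032). Resistant replicate 1 lay only just above parental replicate 1, and the call was lost without parental replicate 2 or 3 or without resistant replicate 2 or 3. COL4A2 had 600, 720 and 640 CPM in the resistant libraries, against 595, 561 and 583 CPM in the parental ones, which did not overlap but missed the threshold (0.18 ± 0.06, edgeR adjusted p = 0.061). With DESeq2 (adjusted p = 0.034), and by edgeR with library totals only (0.048) or without the low-count filter (0.005), COL4A2 was called. COL4A5 had 19.0, 20.3 and 21.1 CPM in the resistant libraries, against 23.7, 19.4 and 20.6 CPM in the parental ones, with overlap (-0.07 ± 0.08). COL4A6 lay between 0.109 and 0.239 CPM in CHL1 and was not tested there. COL4A4 (-0.31 ± 0.16) and COL4A3 (0.18 ± 0.23) were not called.

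The type VI genes were not called in CHL1 at the settings used. COL6A1 had 165, 192 and 173 CPM in the resistant libraries, against 154, 154 and 166 CPM in the parental ones (0.17 ± 0.06, edgeR adjusted p = 0.056), and it was called higher with library totals only (adjusted p = 0.041), without the low-count filter (0.014) and with the replicate block (0.026). COL6A2 had 65.6, 82.0 and 71.4 CPM in the resistant libraries, against 75.3, 71.6 and 78.3 CPM in the parental ones (-0.04 ± 0.07). COL6A3 had 1.30, 1.05 and 0.798 CPM in the resistant libraries, against 1.64, 1.07 and 1.16 CPM in the parental ones (-0.32 ± 0.24). In all 3 genes the groups overlapped. COL7A1 had 3.49, 5.46 and 5.04 CPM in the resistant libraries, against 5.72, 6.86 and 6.42 CPM in the parental ones, which did not overlap but missed the threshold (-0.43 ± 0.15, edgeR adjusted p = 0.062). By edgeR without the low-count filter (adjusted p = 0.0063) and with the replicate block (0.011), COL7A1 was called. COL8A1 lay between 0.203 and 0.544 CPM (-0.33 ± 0.39).

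Of the 9 FACIT genes tested in CHL1, 4 were called, beside 21.0% of all genes tested. COL14A1, which binds fibrils in skin and tendon, had 270, 252 and 267 CPM in the resistant libraries, against 396, 373 and 418 CPM in the parental ones (-0.59 ± 0.05, edgeR adjusted p = 1.3e-05). COL22A1 had 42.1, 42.1 and 40.6 CPM in the resistant libraries, against 30.2, 28.0 and 30.6 CPM in the parental ones (0.49 ± 0.06, edgeR adjusted p = 0.00012). COL19A1 had 6.24, 4.81 and 6.02 CPM in the resistant libraries, against 11.3, 11.0 and 11.5 CPM in the parental ones (-0.99 ± 0.11, edgeR adjusted p = 6.2e-05). No groups overlapped for these 3 genes, and COL19A1 fell here while it rose in A375. COL21A1 had 0.730, 0.760 and 0.834 CPM in the resistant libraries, against 0.501, 0.371 and 0.279 CPM in the parental ones (1.00 ± 0.28, edgeR adjusted p = 0.024), and the call was lost without parental replicate 2 or 3 or without resistant replicate 2 or 3.

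The other FACIT genes were not called in CHL1 at the settings used. COL9A3 had 435, 556 and 459 CPM in the resistant libraries, against 509, 515 and 501 CPM in the parental ones (-0.07 ± 0.07). COL9A1 had 19.3, 18.6 and 12.5 CPM in the resistant libraries, against 22.4, 20.4 and 20.9 CPM in the parental ones (-0.34 ± 0.13, edgeR adjusted p = 0.089). The COL9A1 groups did not overlap, with resistant replicate 3 the lowest, while the COL9A3 groups overlapped. COL12A1 had 16.1, 12.8 and 12.6 CPM in the resistant libraries, against 13.7, 10.2 and 8.02 CPM in the parental ones (0.37 ± 0.16, edgeR adjusted p = 0.13). By edgeR without the low-count filter (adjusted p = 0.0023) and with the replicate block (0.0065), COL12A1 was called. COL16A1 had 43.2, 48.1 and 37.1 CPM in the resistant libraries, against 43.2, 50.6 and 41.2 CPM in the parental ones (-0.07 ± 0.10).

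Both multiplexin genes, whose products sit in basement membranes and release anti-angiogenic fragments, were well expressed in CHL1. COL15A1 had 125, 114 and 85 CPM in the resistant libraries, against 68.2, 60.3 and 65.5 CPM in the parental ones, without overlap (0.74 ± 0.11, edgeR adjusted p = 0.00063). COL18A1 had 1056, 1298 and 1070 CPM in the resistant libraries, against 980, 979 and 1057 CPM in the parental ones, with overlap (0.19 ± 0.07, edgeR adjusted p = 0.091). Without the low-count filter COL18A1 was called (edgeR adjusted p = 0.0011). COL13A1 and COL17A1 did not exceed 0.0725 CPM in any CHL1 library and were not tested there. Fibroblast markers other than collagens summed to 47.4 to 48.2 CPM in resistant CHL1 and 43.8 to 52.5 CPM in parental CHL1, with PDGFRA and DPT at 0 in every CHL1 library. Of the 6 tested there, 1 rose and 1 fell, beside 21.0% of all genes called. FBLN1 rose, averaging 30.1 CPM in resistant and 23.9 CPM in parental CHL1. LUM fell, averaging 7.39 CPM in resistant and 14.8 CPM in parental CHL1.

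Over all genes tested in CHL1, 9.50% were called higher and 11.5% lower, the background for the list counts in that line. Of the 14 hydroxylases and glycosyltransferases tested in CHL1, 1 rose and 2 fell, with a median of -0.02. Of the 13 folding and export genes tested, 2 rose and 1 fell, with a median of 0.05. The prolyl 3-hydroxylases P3H2 (-0.49 ± 0.09) and P3H1 (-0.20 ± 0.05) fell, and CRTAP, a partner of P3H1, rose (0.13 ± 0.04). SEC13, a coat protein of transport vesicles, fell (-0.40 ± 0.04), and FKBP9 (0.25 ± 0.04) and FKBP14 (0.29 ± 0.06) rose. Of the 8 processing genes tested, 2 rose and 2 fell, with a median of 0.03. ADAMTS2, the proteinase that removes the N-terminal propeptide, averaged 46.2 ± 7.30 CPM in resistant and 73.8 ± 5.44 CPM in parental CHL1 (SD, n = 3 each; -0.67 ± 0.10, edgeR adjusted p = 0.00046). FURIN fell (-0.38 ± 0.06), and ADAMTS14 (0.65 ± 0.15) and PCOLCE (0.32 ± 0.09) rose.

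The called share of all genes tested in CHL1, to be set beside the next counts, was 21.0%. Of the 6 cross-linking genes tested in CHL1, 2 rose and 3 fell, with a median of -0.11. LOXL1, a lysyl oxidase homologue, averaged 45.5 ± 4.05 CPM in resistant and 23.1 ± 2.56 CPM in parental CHL1 (SD, n = 3 each; 0.98 ± 0.09, edgeR adjusted p = 1.4e-05). LOXL3 rose (0.41 ± 0.05), and LOXL2 (-0.67 ± 0.10) and TGM2 (-1.53 ± 0.24) fell. Of the 10 receptors tested, 2 rose, with a median of 0.03, and these were MRC2, which takes up collagen (0.39 ± 0.08), and ITGA2 (0.28 ± 0.07). Of the 6 degradation genes tested, 1 rose and 4 fell, with a median of -0.25. MMP2, a gelatinase, averaged 35.1 ± 1.76 CPM in resistant and 15.4 ± 1.76 CPM in parental CHL1 (SD, n = 3 each; 1.19 ± 0.08, edgeR adjusted p = 2.8e-06). PRODH, the first enzyme of proline breakdown, had 0.0405, 0.0723 and 0.0363 CPM in the resistant libraries, against 0.644, 0.778 and 1.28 CPM in the parental ones, and CTSL (-0.31 ± 0.06) and MMP14 (-0.23 ± 0.05) fell. Of the 9 collagen-binding matrix genes tested, 3 rose and 4 fell, with a median of -0.22. FN1 had 92.2, 84.7 and 92.1 CPM in the resistant libraries, against 27.5, 23.8 and 27.4 CPM in the parental ones (1.78 ± 0.07, edgeR adjusted p = 1.4e-08). TGFBI (-0.66 ± 0.08), FBN1 (-0.54 ± 0.06) and SPARC (-0.41 ± 0.06) fell.

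The third comparison set the change between resistant and parental cells in CHL1 against that in A375. The lines differ also in the length of selection, 3 months in CHL1 and 7 in A375, and line and length cannot be told apart. Of the 28 collagen genes tested in both lines, COL5A2 and COL22A1 rose in both, COL5A1 fell in both and COL19A1 was called in opposite directions, while 14 were called in A375 only and 4 in CHL1 only. As shares of the 28 these are 7.14% higher in both, 3.57% lower in both, 3.57% opposite, 50% in A375 only and 14.3% in CHL1 only. COL22A1 in A375 and COL21A1 in CHL1 passed the filter on low counts only through the resistant libraries. The shares higher in both and in CHL1 only therefore follow in part from the filter. Over the 15975 genes tested in both lines the shares were 1.77% higher in both, 2.28% lower in both, 3.56% opposite, 20.1% in A375 only and 13.4% in CHL1 only. A call in 1 line alone does not show that the lines differ, so the difference of the 2 changes was tested in a fit to all 12 libraries. Of the 39 collagen genes tested, 7 differed with a higher log2 change in CHL1 and 10 with a lower one, or 43.6% of them, beside 23.6% of all 19241 genes tested, 11.9% above 0 and 11.7% below 0. Called differences of at least 2-fold were found for 11 of the 39 collagen genes tested, beside 6.84% of all 19241 genes tested. The median difference was -0.19 over the collagen genes tested and 0.00 over all genes tested. The count above 0 was 4 without A375 parental replicate 1, A375 resistant replicate 1, CHL1 parental replicate 1, CHL1 parental replicate 3 or CHL1 resistant replicate 2, and the count below 0 was 10 to 12 in these fits. COL11A1 was called as well without A375 parental replicate 3 (-0.58, edgeR adjusted p = 0.0077).

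The differences ran through most classes. COL22A1, which rose in both lines, had the largest called difference, -5.51 ± 0.40 (edgeR adjusted p = 5e-07), and its A375 side rests on 4 counts in the parental libraries. COL6A2 (-1.64 ± 0.15) and COL6A3 (-1.99 ± 0.26), COL8A1 (-3.22 ± 0.51) and COL4A6 (-3.51 ± 0.41) had lower log2 changes in CHL1 than in A375. COL6A1 missed the threshold (-0.36 ± 0.13, edgeR adjusted p = 0.058) but was called with DESeq2 (adjusted p = 0.039), with the 1 CPM filter (0.039) and with the replicate block (0.011). COL5A3 (2.31 ± 0.53) and COL9A3 (1.42 ± 0.22), which fell in A375, had higher log2 changes in CHL1. For COL5A1 the decrease was deeper in CHL1 by -0.76 ± 0.19, and for COL5A2 the increase was smaller there by -0.84 ± 0.09. COL1A2 differed by -5.16 ± 2.31, which edgeR did not call (adjusted p = 0.13) but DESeq2 (adjusted p = 0.0037) and limma-voom (adjusted p = 0.0016) did, and the CHL1 side of that difference rests on counts below the floor.

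The last comparison set the parental lines beside each other, CHL1 over A375. Parental CHL1 cells held more mRNA of the type XI genes COL11A1 and COL11A2, the multiplexin genes COL15A1 and COL18A1 and the FACIT gene COL14A1, and parental A375 cells held more of COL13A1, COL8A1, COL6A3, COL12A1 and COL5A1. Of the 39 genes tested, 16 were higher and 18 lower in CHL1 and 5 were not called, and 28 of the calls were at least 2-fold. Of all genes tested, 75.6% were called, 37.4% higher and 38.2% lower in CHL1, and 37.5% were called with at least 2-fold. With most genes called, the count of collagen genes says little and the sizes are given instead. Line and deposited table cannot be told apart here. With library totals as the only scaling, the median over all genes was -0.13, against -0.03 with the scaling used.

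COL11A1, which averaged 4371 ± 133 CPM in parental CHL1 and 5.01 ± 3.15 CPM in parental A375 (SD, n = 3 each), differed by 9.76 ± 0.29 on the log2 scale (edgeR adjusted p = 2.1e-13) and by 10.40 without A375 parental replicate 3. COL14A1 differed by 9.59 ± 0.12, COL11A2 by 6.39 ± 0.19, COL15A1 by 6.34 ± 0.20 and COL18A1 by 5.17 ± 0.15. COL9A1 held 1699 counts in the 3 parental CHL1 libraries and 9 in the parental A375 ones, a ratio of 177 by depth with an exact 95% interval of 92.8 to 387. COL22A1, which rose in A375, held 2368 counts in parental CHL1 and 4 in parental A375, a ratio of 554 with an interval of 216 to 2033. Even after its rise, COL22A1 lay at 2.65 to 4.55 CPM in resistant A375, below its 28.0 to 30.6 CPM in parental CHL1.

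COL13A1 was the gene with the largest difference in the other direction. It held 1 count in the 3 parental CHL1 libraries and 3482 in the parental A375 ones, a ratio of A375 over CHL1 of 3724 by depth with an exact 95% interval of 668 to 147131. COL17A1 held 1 count in parental CHL1 and 217 in parental A375, a ratio of 232 with an interval of 41.2 to 9208. Fitted log2 differences were -4.43 ± 0.25 for COL8A1, -3.73 ± 0.33 for COL5A3, -3.34 ± 0.16 for COL6A3, -3.12 ± 0.22 for COL4A6 and -2.72 ± 0.17 for COL12A1. COL4A2 (-0.14 ± 0.08), COL9A2 (0.14 ± 0.17) and COL16A1 (0.33 ± 0.17) were not called, although COL4A2 was called lower in CHL1 with library totals as the only scaling (edgeR adjusted p = 0.008), and for COL6A1 the call at -0.22 ± 0.09 was lost in 5 of 12 fits without 1 library, without the low-count filter and with limma-voom. COL19A1 (-0.62 ± 0.19) lost its call without A375 parental replicate 1.

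**Figure D5:**
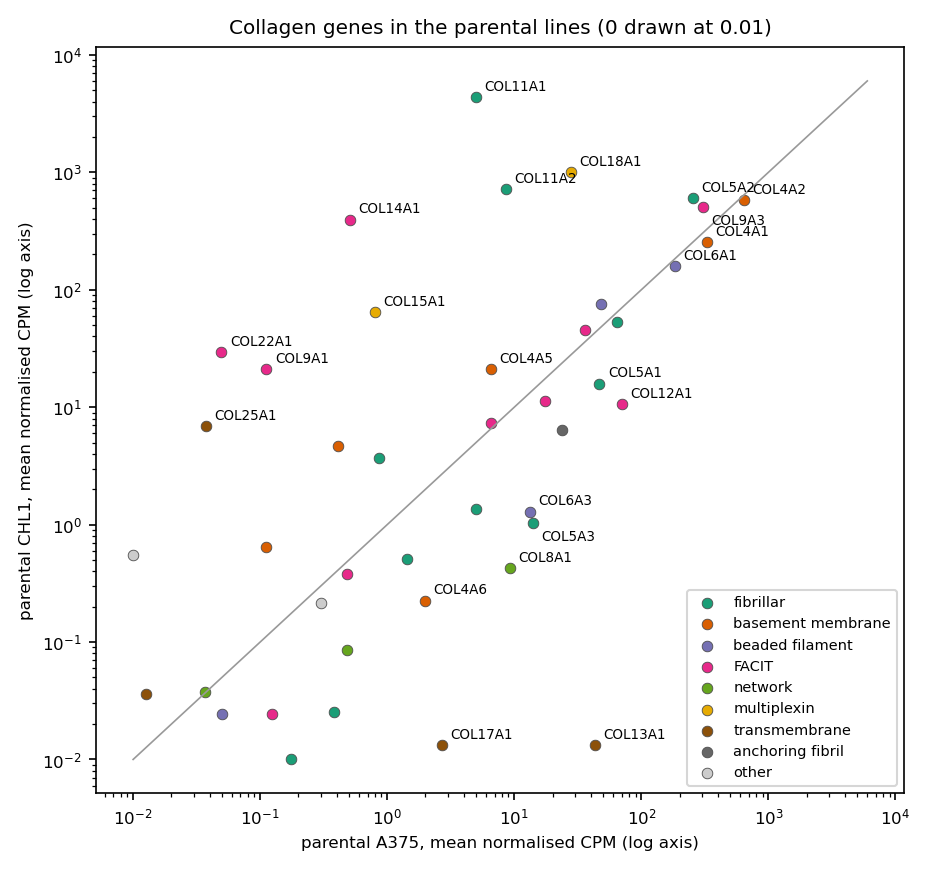
Mean normalised CPM of each collagen gene in parental CHL1 (vertical) against parental A375 (horizontal), both on log axes, coloured by class, with the line of equality; a mean of 0 is drawn at 0.01 and COL6A5, which only the CHL1 table lists, is left out. COL11A1, at 4371 CPM in CHL1 and 5.01 CPM in A375, lies far above the line, and COL13A1 and COL17A1 lie far below it.

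The summed collagen level per kb of exon was 1106 ± 76.3 in resistant CHL1, 276 ± 9.01 in resistant A375, 1064 ± 11.3 in parental CHL1 and 239 ± 25.4 in parental A375 (SD, n = 3 each). COL11A1 alone made up 44.7% ± 1.17 of the sum in resistant CHL1 and 45.2% ± 0.896 in parental CHL1 (SD, n = 3 each), or 40.8% in resistant and 41.2% in parental CHL1 per kb of the longest transcript. COL18A1 followed with 12.1% in resistant and 11.1% in parental CHL1. The fibrillar share of 63.8% in resistant and 63.4% in parental CHL1 was thus mostly type XI.

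The 14 collagen genes that were called in neither line and averaged below 10 CPM in every group reached at most 9.08 CPM in any library, which was COL9A2 in CHL1. Of these, COL6A5, COL6A6, COL10A1, COL20A1 and COL23A1 were tested in neither line and did not exceed 0.254 CPM. COL25A1, a transmembrane collagen of neurons, held 552 counts in parental CHL1 and 3 in parental A375, a ratio of 172 with an exact 95% interval of 58.6 to 837, and was not called between resistant and parental CHL1 (-0.30 ± 0.11, edgeR adjusted p = 0.069). COL26A1 held 45 counts in parental CHL1 and 0 in parental A375, so its ratio has no finite value, and the exact 95% interval starts at 10.9.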

How the data were processed

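RNA was measured by sequencing of TruSeq v2 libraries, a kit that does not mark strand, from 12 samples in 4 groups. The authors deposited raw read counts per gene, 1 table per cell line. Per the submitters' processing notes, CASAVA 1.8.2, cutadapt 1.7, TopHat2, HTSeq 0.5 and limma were used. Genome build and annotation were not given in these sources. Genes were identified by their Ensembl IDs, and symbols, collagen positions and exon lengths came from GENCODE release 29. No symbol was found for 2484 IDs of A375, with 1.62% of the counts, and 2284 IDs of CHL1, with 1.38%.

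Each line was fitted with its own 6 libraries, and the 12 libraries were fitted together over the 29735 genes listed in both tables for the difference between the lines' changes and for the parental lines. The test was edgeR 4.0.16's quasi-likelihood F-test (R 4.3.3) with TMM scaling, edgeR's filter on low counts (minimum count 10), and Benjamini-Hochberg adjustment over all genes tested at 0.05. SEs were derived from the fold change and its F statistic. Normalised CPM used TMM factors over all 12 libraries, and levels between genes were compared per kb of summed exons. The fits were tested on simulated data with known changes. Of the simulated calls, 7.85% were false in A375, 7.28% in CHL1, 4.94% for the difference of changes and 5.21% for the parental lines. In the same order, 58%, 86%, 42% and 68% of simulated 1.5-fold changes and 96%, 96%, 74% and 96% of 2-fold changes were recovered. Summaries were made in Python 3.11.15 (pandas 2.3.3, numpy 2.4.6) and plots with matplotlib 3.10.9.

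Alternatives were DESeq2 size factors, library totals only, no filter or a filter of 1 CPM in 3 libraries, DESeq2 1.42.0, limma-voom (limma 3.58.1), the replicate number as a block, genes of either table, the longest transcript as length, and leaving out each library. Values are given per library for each collagen gene called in either line or averaging at least 10 CPM in a group, and the others, apart from COL1A1 in A375, by range. From each of 7 pathway lists, up to 4 genes with the smallest adjusted p were named per line; FMOD of the matrix list and PECAM1 of the endothelial list are not analysed here. Exact intervals of count ratios cover counting error only, at 95%. The collagen genes, the pathway lists and the 5 marker lists were chosen with earlier results of these data known.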

Additional observations from a re-analysis of the deposited data

Results flagged for a closer look

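For 17 collagen genes the log2 change of resistant over parental cells in CHL1 differed from that in A375 by a test of the difference itself (edgeR's quasi-likelihood test on all 12 libraries, Benjamini-Hochberg adjustment over all genes); values are the log2 change in CHL1 minus that in A375.

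The change was lower in CHL1 for 10 of them. In order of size the differences were -5.51 for COL22A1, -3.51 for COL4A6, -3.22 for COL8A1, -1.99 for COL6A3, -1.84 for COL19A1, -1.64 for COL6A2, -1.23 for COL24A1, -1.13 for COL4A5, -0.84 for COL5A2 and -0.76 for COL5A1. These 10 calls held in all 12 fits that left out 1 library. COL4A6 and COL8A1 averaged below 1 CPM in both CHL1 groups, so their CHL1 side rests on few counts. The A375 side of COL22A1 rests on 4 counts in all in the parental libraries, below the floor.

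The change was higher in CHL1 for 7 of them. The differences were 2.31 for COL5A3, 1.42 for COL9A3, 1.25 for COL2A1, 0.79 for COL11A2, 0.78 for COL16A1, 0.60 for COL4A2 and 0.31 for COL27A1. COL5A3, COL9A3 and COL4A2 held in all 12 fits without 1 library. COL2A1 lost its call in 7 of these fits and COL16A1 in 7, COL11A2 in 6 and COL27A1 in 3. COL2A1 averaged 0.938 CPM in resistant and 0.507 CPM in parental CHL1, so its CHL1 side rests on few counts as well. With DESeq2 the adjusted p was 0.058 for COL2A1 and 0.084 for COL11A2, and with limma-voom it was 0.076 for COL11A2.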

How the results depend on the processing

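In resistant over parental CHL1, where 5 collagen genes rose and 3 fell, the count that rose was 8 with library totals as the only scaling, 10 with no low-count filter and 9 with a replicate block, and the count that fell was 5 with no filter and 6 with the block. Leaving out 1 library at a time gave 3 to 8 that rose and 3 to 6 that fell in CHL1, 11 to 14 that rose and 6 to 8 that fell in A375, 4 to 8 differences of the changes above 0 and 10 to 12 below 0, and 16 to 18 higher and 16 to 18 lower in parental CHL1 over parental A375. Per kb of the longest transcript COL5A2 held 19.6% of the summed collagen level in resistant A375, and COL11A1 held 40.8% in resistant CHL1 and 41.2% in parental CHL1. The counts of called genes in A375 and in the joint comparisons were within 1.5 times of those reported under every other alternative named above.

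Within each line, the sign changed only for genes not called at the settings used. Of the changed values there, that of COL11A1 without A375 parental replicate 3 (0.62) passed the threshold. In fits without 1 library, the A375 values of these genes ran from -0.13 to 0.02 for COL4A1, -0.59 to 0.07 for COL14A1, -0.47 to 0.11 for COL15A1 and -0.32 to 0.62 for COL11A1, which was at 0.15 with limma-voom and 0.09 with the block. The CHL1 values ran from -0.14 to 0.01 for COL4A5, -0.25 to 0.23 for COL5A3, -0.13 to 0.02 for COL6A2 and -0.16 to 0.02 for COL16A1. COL1A1 (-0.06 to 0.55) and COL9A2 (-0.19 to 0.22) in A375 and COL1A1 (-0.04 to 0.12) in CHL1 also crossed 0. COL1A1 and COL9A2 are not in the tally that follows. DESeq2 gave no adjusted p for COL21A1 in CHL1. A tally was made for resistant over parental cells within each line only. It took the collagen genes called in either line or averaging at least 10 CPM in a group. Over these genes and all alternatives, 630 results kept their sign and side of the threshold, 27 gained a call, 22 lost one and 14 changed sign. The joint comparisons and the pathway genes are not in this tally. Apart from fewer samples in the fits without 1 library, the cause was not tested.

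Resistant and parental libraries with the same replicate number correlated in their deviations at 0.26, 0.27 and -0.01 in A375 and at 0.15, 0.01 and 0.03 in CHL1, so the numbers were not treated as pairs, and not every library correlated best with its own number. With the block, 3016 genes rose and 3291 fell in A375, against 2426 and 2685 without it, and 2008 rose and 2331 fell in CHL1, against 1636 and 1987 without it. The block could not be fitted for the parental lines. Depth limits the genes below 0.118 CPM, where a library holds fewer than about 3 counts.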

Other observations

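SERPINH1, the collagen chaperone HSP47, was singled out after its values were seen. It had 0.0811, 0.362 and 0.254 CPM in resistant CHL1 and 0.286, 0.148 and 0.0399 CPM in parental CHL1, while COL11A1 was between 4223 and 4712 CPM in these libraries. In A375 the same gene had 116, 99.5 and 104 CPM in resistant and 89.2, 78.6 and 87.6 CPM in parental libraries. Parental CHL1 lay -8.99 ± 0.20 from parental A375 on the log2 scale (edgeR adjusted p = 1.3e-14).

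PXDN had 1431, 1609 and 1550 CPM in resistant CHL1 and 1444, 1422 and 1523 CPM in parental CHL1, and its log2 change in CHL1 minus that in A375 was 6.13 ± 0.30 (edgeR adjusted p = 1.5e-08).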
